A study of Mus musculus with 10 samples.

Results

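Activity-induced immediate early genes are switched on within minutes of a stimulus, before any new protein is made, and their transcripts decay quickly. The 10 genes described here were Fos, Fosb, Junb, Egr1, Egr2, Egr4, Arc, Nr4a1, Npas4 and Dusp1, picked by name as the rows of the gene count table whose Ensembl identifier carries one of these symbols in GRCm39. All 10 were found among the 29883 genes of the table. The rule used names alone, but the members were chosen with earlier results of these data known. The table holds the nucleus accumbens (NAc), the ventral part of the striatum, from 5 male C57BL/6J (B6) and 5 male DBA/2J (D2) mice, both inbred strains. All mice were 9 weeks old, group-housed and without a listed treatment, so there was no stimulated group. The poly-A RNA of each mouse was sequenced as 1 library, so that the mouse is the replicate. The hour and order in which the mice were killed, and their handling just before, are not given in the sources used here, so the values are levels at killing and are not shown to be resting levels.

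In a neuron, calcium that enters through synaptic receptors and channels activates kinases such as ERK and the calmodulin-dependent kinases, which phosphorylate transcription factors that already sit on the promoters of these genes. Serum response factor binds the CArG box and CREB binds the cAMP response element, and both then recruit the transcription machinery. Most of the induced proteins are themselves transcription factors, of the AP-1, EGR, NR4A and bHLH-PAS families, while Arc acts at the synapse and Dusp1 turns the kinases off again. In striatal medium spiny neurons, the main cell type of the NAc, dopamine and glutamate together drive this response.

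The promoters of 9 of the 10 genes were searched for such motifs, from 500 bases before to 50 bases after the start of the canonical transcript (GRCm39, GENCODE annotation). Egr1 was not searched. A CArG box (CC, then 6 bases that are A or T, then GG) was present in Fos, Fosb and Egr2, and in 2.88% of the 16862 promoters searched. The full cAMP response element was present in Dusp1 and in 3.03% of promoters. TATAAA was present in Fos, Junb and Nr4a1 and in 19.9% of promoters. The EGR site (GCG, then T or G, then GGGCG) was present in Fosb and Nr4a1 and in 5.56% of promoters. Both strands were read, and no motif overlapped another at the sites shown. The windows of Egr4, Arc and Npas4 held none of these letters, which says nothing about other binding sites. Every CArG box and the cAMP response element, the motifs found in the fewest promoters, are given below with the TATAAA of Fos and Junb that lies close to the start. The TATAAA of Nr4a1, at base -195 on the other strand, and the EGR sites are not shown. Each line holds 30 bases of the gene's own strand, 5′ to 3′, with the motif in capitals.
Fos CArG box (chr12:85520345-85520374, plus strand): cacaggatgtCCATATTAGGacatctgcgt
Fos TATA box (chr12:85520619-85520648, plus strand): tcacagcgcttcTATAAAggcgccagctga
Fosb CArG box (chr7:19044223-19044252, minus strand): tggccgagctCCTTATATGGctaattgcgt
Egr2 CArG box, far (chr10:67373314-67373343, plus strand): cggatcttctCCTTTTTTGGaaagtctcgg
Egr2 CArG box, near (chr10:67373617-67373646, plus strand): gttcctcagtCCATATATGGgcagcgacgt
Junb TATA box (chr8:85705360-85705389, minus strand): tgacaaattcagTATAAAagcttggggctg
Dusp1 cAMP response element (chr17:26727571-26727600, minus strand): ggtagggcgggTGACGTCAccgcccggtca
Counted from the transcript start, the CArG box of Fos begins at base -303, that of Fosb at -266 and the pair in Egr2 at -368 and -65. These letters describe the reference genome, which is of the B6 strain, and binding was not measured.

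Levels are given as CPM, the reads of a gene relative to all counted reads of that mouse (counts-per-million scale), after TMM scaling of the libraries. Log2 fold changes are D2 against B6 with their standard error (SE) and come from edgeR, and p-values were adjusted by the Benjamini-Hochberg method over all genes of the table. The lowest count of a member in any mouse was 230, for Egr2, where counting alone would give a coefficient of variation of 6.59%. For the other 9 it would give at most 3.52%.

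Each library held 96977262 to 116776714 counted reads. Of all 29883 genes, 18.3% were called between the strains, which means an adjusted p under 0.05 in edgeR's quasi-likelihood test, with 2541 genes higher and 2937 lower in D2. The NAc markers were strongly expressed. The 12 striatal neuron markers summed to 5121 to 7691 CPM per mouse, none was at 0, and 8 of the 12 were lower in D2, among them Adcy5, the adenylyl cyclase of medium spiny neurons, and the phosphodiesterase Pde10a. The 12 cortex neuron markers summed to between 378 and 1429.9 CPM in B6 and between 531 and 1002 in D2, and 0 of the 12 were called. Slc17a7, the vesicular glutamate transporter of cortical neurons, ranged from 57.2 to 791 CPM in B6 and from 174 to 493 in D2. In bulk tissue, fewer cells of a type and less RNA per cell cannot be told apart.

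The AP-1 members Fos, Fosb and Junb encode leucine zipper proteins that bind DNA as Fos-Jun pairs. Fos (ENSMUSG00000021250, chr12:85520658-85524047) stood at 18.5, 12.3, 17.3, 21.2 and 17.5 CPM in B6 replicates 1 to 5. In D2 replicates 1 to 5 it stood at 25.2, 24.8, 7.08, 7.66 and 18.7 CPM. The D2 mice thus held both the highest and the lowest levels of the 10, with 2 mice above every B6 mouse, 2 below every B6 mouse and 1 among them. The strain means were 17.4 ± 3.23 CPM in B6 and 16.7 ± 8.89 CPM in D2 (SD, n = 5 each). The log2 fold change was -0.06 (SE 0.327, 95% interval -0.77 to 0.65), with an adjusted p of 0.94 in edgeR. The interval reaches past a 1.5-fold difference in either direction.

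Fosb (ENSMUSG00000003545, chr7:19036621-19043976), which also gives rise to the long-lived splice form ΔFosB in the striatum, had the same D2 mice at the top and at the bottom, in a narrower range. Its levels were 16.7, 12.7, 16.8, 19.8 and 16.2 CPM in B6 and 21.0, 19.5, 12.5, 11.2 and 15.4 CPM in D2, in order of replicate. Counts per gene do not separate its splice forms. D2 replicates 3 and 4 lay below every B6 mouse and D2 replicate 1 above every one. Fosb gave a log2 fold change of -0.05 (SE 0.168, 95% interval -0.41 to 0.32, adjusted p = 0.896, edgeR).

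Junb (ENSMUSG00000052837, chr8:85701113-85705359) encodes a Jun-family partner. Its levels were 65.4, 58.6, 68.1, 77.3 and 66.4 CPM in the B6 mice and 70.1, 73.2, 45.8, 41.7 and 66.2 CPM in the D2 mice. Again, D2 replicates 3 and 4 lay below all B6 mice, while the others lay within the B6 range. For Junb the log2 fold change was -0.18 (SE 0.145, 95% interval -0.49 to 0.14, adjusted p = 0.478, edgeR). Junb overlaps Prdx2 on the opposite strand, and whether the counting used strand is not given in the sources used here.

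**Figure D1:**
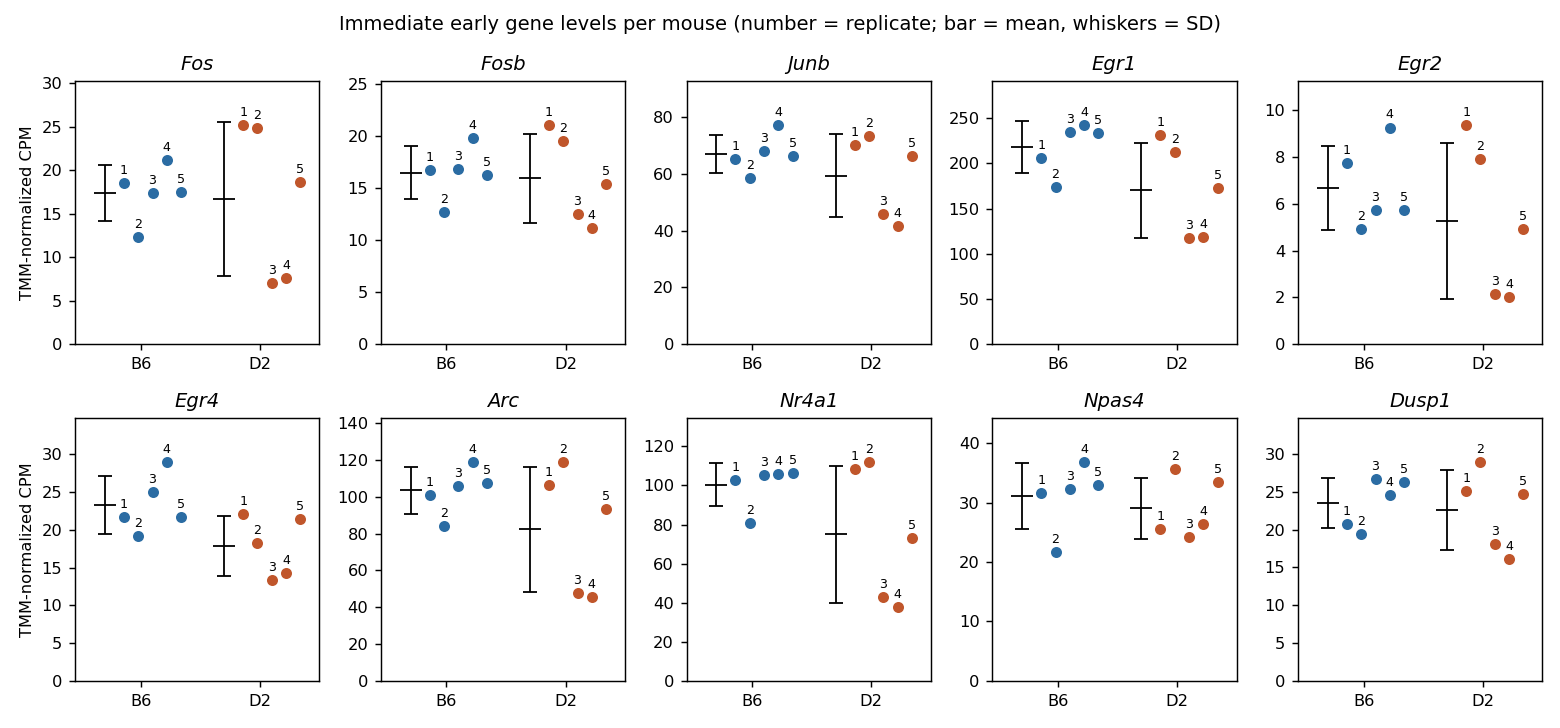
Level of each gene (y axis, TMM-normalized CPM, a separate scale for each gene, from 0) in 5 B6 and 5 D2 mice. Points are mice, numbered by replicate, and the bar with whiskers beside them is the mean with its SD. D2 replicates 3 and 4 are the lowest pair of D2 in 9 of the 10 panels, and the strains overlap in all 10.

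The EGR members encode zinc finger transcription factors. Egr1 (ENSMUSG00000038418, chr18:34992876-34998049), the most widely used activity marker of the family, had levels of 206, 174, 235, 243 and 233 CPM in B6 replicates 1 to 5. In D2 it had levels of 231, 212, 117, 118 and 172 CPM. At nearly equal levels, D2 replicates 3 and 4 were below every B6 mouse, D2 replicate 5 was also just below the lowest B6 mouse, and D2 replicates 1 and 2 lay within the B6 range. The means were 218 ± 28.5 CPM in B6 and 170 ± 52.3 CPM in D2 (SD, n = 5 each). The log2 fold change was -0.36 (SE 0.180, 95% interval -0.75 to 0.03, adjusted p = 0.213, edgeR).

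Egr2 (ENSMUSG00000037868, chr10:67371305-67378018), the member with both CArG boxes shown above, was the most variable. Its levels were 7.75, 4.92, 5.72, 9.27 and 5.74 CPM in B6 and 9.38, 7.91, 2.13, 2.00 and 4.94 CPM in D2. The raw counts behind the D2 values were 1104, 875, 244, 230 and 523 reads. D2 replicate 1 was the highest of all 10 mice, and D2 replicates 3 and 4 stood well below any other mouse. Egr2 gave a log2 fold change of -0.34 (SE 0.384, 95% interval -1.17 to 0.49, adjusted p = 0.631, edgeR).

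Egr4 (ENSMUSG00000071341, chr6:85485678-85490675) came nearest to the threshold. It stood at 21.7, 19.2, 25.0, 29.1 and 21.7 CPM in the B6 mice and at 22.1, 18.3, 13.4, 14.3 and 21.4 CPM in the D2 mice. D2 replicates 2, 3 and 4 were below the lowest B6 mouse and the other two lay within the B6 range. The log2 fold change was -0.38 (SE 0.147, 95% interval -0.70 to -0.06), with an unadjusted p of 0.0231 and an adjusted p of 0.0985 in edgeR. Across all other settings its adjusted p lay between 0.0519 and 0.219, so that it passed in none of them, and 29.4% of all genes had an unadjusted p under 0.05.

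Nr4a1 (ENSMUSG00000023034, chr15:101151980-101172681) encodes the orphan nuclear receptor Nur77. It had the most even levels in B6 apart from replicate 2, at 103, 80.7, 105, 106 and 107 CPM. In D2 the levels were 108, 112, 43.1, 38.0 and 73.1 CPM, so that replicates 3, 4 and 5 lay below every B6 mouse and replicates 1 and 2 above every one. The means were 100 ± 11.01 CPM in B6 and 74.9 ± 34.9 CPM in D2 (SD, n = 5 each). Its log2 fold change was -0.42 (SE 0.264, 95% interval -0.99 to 0.15, adjusted p = 0.334, edgeR), the furthest from 0 of the 10 in edgeR. In limma-voom it was -0.55, and that of Egr2 was further from 0, at -0.58.

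Npas4 (ENSMUSG00000045903, chr19:5034382-5040344) encodes a bHLH-PAS factor known to respond to calcium entry and little else. Its levels were 31.6, 21.8, 32.2, 36.9 and 33.0 CPM in B6 and 25.5, 35.6, 24.2, 26.4 and 33.5 CPM in D2. Here the lowest mouse of all was B6 replicate 2, and D2 replicate 1, among the highest for the other members, was the second lowest of its strain. The log2 fold change was -0.10 (SE 0.138, 95% interval -0.40 to 0.20, adjusted p = 0.709, edgeR).

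Arc (ENSMUSG00000022602, chr15:74540932-74544419) encodes a cytoskeletal protein that promotes the removal of AMPA receptors. Its levels were 101, 84.0, 106, 119 and 108 CPM in B6 replicates 1 to 5. The D2 mice had 106, 119, 48.0, 45.4 and 93.3 CPM, of which replicates 3 and 4 were below every B6 mouse and the others within the B6 range or level with its top. Arc gave a log2 fold change of -0.33 (SE 0.240, 95% interval -0.85 to 0.19, adjusted p = 0.418, edgeR).

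Dusp1 (ENSMUSG00000024190, chr17:26724564-26781102) encodes a nuclear phosphatase that inactivates the MAP kinases, and is the only one of the 9 members searched whose window held the full cAMP response element. Its levels were 20.8, 19.4, 26.7, 24.6 and 26.3 CPM in B6 and 25.1, 29.0, 18.1, 16.1 and 24.7 CPM in D2. The D2 replicates 3 and 4 were below every B6 mouse, and D2 replicate 2 was the highest of the 10. Dusp1 gave a log2 fold change of -0.06 (SE 0.149, 95% interval -0.38 to 0.27, adjusted p = 0.850, edgeR). Dusp1 overlaps Ergic1 on the opposite strand.

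Between the strains, 0 of the 10 members were called by edgeR, and likewise 0 by DESeq2 and 0 by limma-voom, against a background of 18.3% of all genes called by edgeR and 23.8% of the 15388 genes that averaged 100 counts or more per library, called the well-counted genes here. At an unadjusted p under 0.05, 1 member passed in edgeR, 1 in DESeq2, 2 in limma-voom and 0 when the log2 levels were permuted between the strains exactly (two-sided). The strains overlapped for all 10 members, whereas 16% of all genes showed no overlap. All 10 log2 fold changes were below 0, as were 49.3% of those of all genes, but the sign of Fos, Fosb and Dusp1 turned when single mice were left out. The median over the members was -0.25 (range -0.42 to -0.05), beside 0.0036 over all genes. That median was -0.10 without D2 replicate 4, -0.13 without D2 replicate 3 and -0.16 without B6 replicate 4. It was -0.35 without D2 replicate 1, -0.33 without D2 replicate 2 and -0.31 without B6 replicate 2. Its size therefore depended on single mice, in both directions. Since the members move together from mouse to mouse, as described next, their 10 signs are not 10 separate observations.

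**Figure D2:**
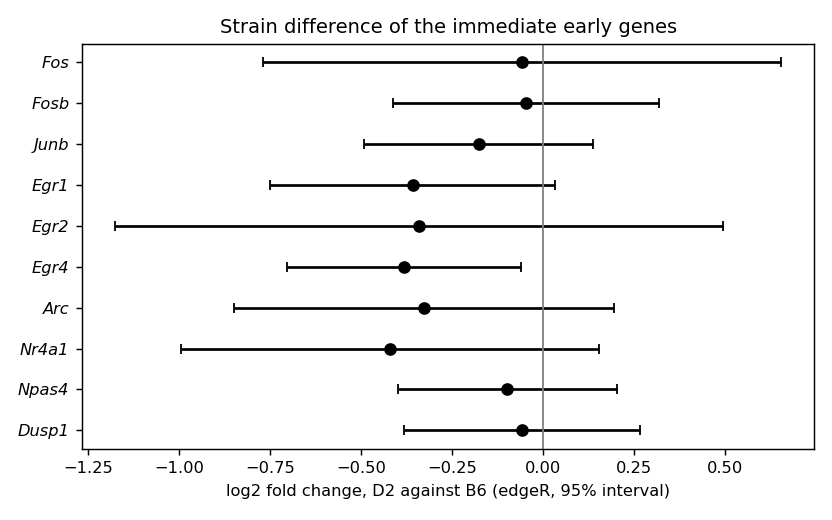
Log2 fold change of D2 against B6 (x axis) for each of the 10 genes (y axis), from edgeR, with the 95% interval as whiskers. All points lie left of 0, and only the interval of Egr4 (-0.70 to -0.06) leaves out 0; its adjusted p was 0.0985.

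The mice of a strain differed in these genes more than in most others. On the log2 scale (log2 CPM with a prior count of 2), the SD between mice of a strain, pooled over both strains, was 0.78 for Egr2, 0.67 for Fos, 0.53 for Nr4a1, 0.48 for Arc and 0.35 for Egr1. It was 0.32 for Fosb, 0.29 for Dusp1, 0.28 for Junb, 0.28 for Egr4 and 0.27 for Npas4. The median of the 10 was 0.339, beside 0.0937 over the 15388 well-counted genes, of which the 90th percentile was 0.257. Each member was more variable than 90.9% to 99.0% of these genes. These values describe the spread and were not tested.

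**Figure D3:**
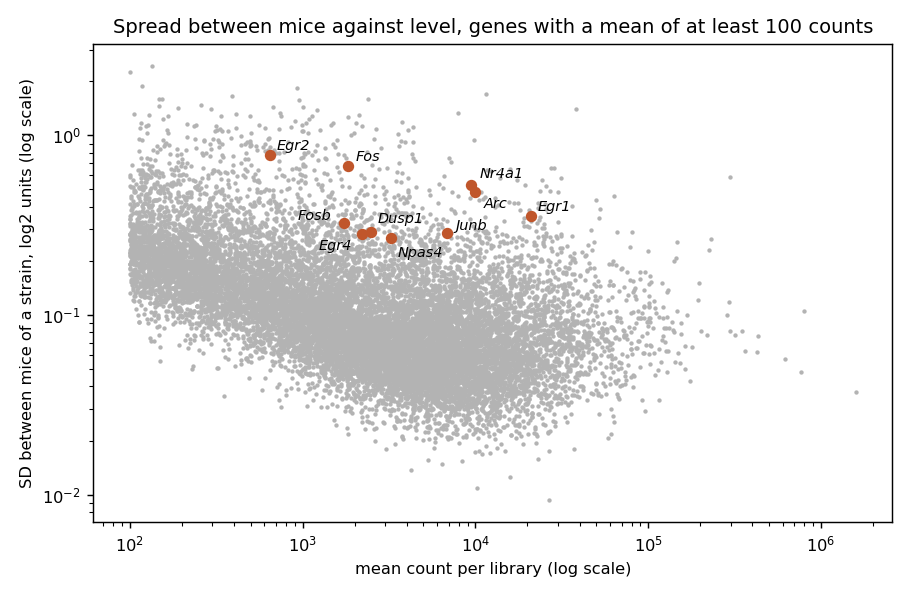
SD between mice of a strain (y axis, log2 units, log scale) against the mean count per library (x axis, log scale) for the well-counted genes (grey, 100 counts or more on average), with the 10 immediate early genes marked. The 10 lie between 0.27 (Npas4) and 0.78 (Egr2), all above the 90th percentile of 0.257.

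The spread was wider among the D2 mice for 9 of the 10 members, with Npas4 as the exception, while 34.6% of the well-counted genes were wider in D2. This was not particular to the members. Among lists described below, D2 was wider for 31 of 52 other activity-regulated genes and 5 of 5 blood markers. The same held for 6 of 8 endothelial and mural, 5 of 7 oligodendrocyte, 4 of 7 astrocyte and 4 of 7 microglia markers. It held for 13 of 37 upstream genes, 3 of 12 striatal and 0 of 12 cortex neuron markers. The highest D2 mouse exceeded the lowest by 4.68-fold for Egr2, 3.56-fold for Fos, 2.96-fold for Nr4a1 and 2.62-fold for Arc. In B6 the corresponding folds were 1.88, 1.72, 1.32 and 1.42. The median SD over the members was 0.427 in D2 and 0.218 in B6, where that over all genes of this level was 0.0763 and 0.0981.

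The difference in spread could not be settled by a test. Permuting the deviations from the strain median exactly (two-sided), the adjusted p was 1 for every member, and also for every other gene of the table. The median mouse of each strain has a deviation of 0 by construction, so with 5 mice per strain this test cannot give a p under 0.0476. Hardly any result could therefore pass adjustment over all genes, and the adjusted p decides nothing here. Nr4a1 had that smallest possible unadjusted p of 0.0476 in the exact test, as did 1.26% of all genes. With deviations taken from the strain mean instead, 6 of the 10 members had an unadjusted p under 0.05 in the exact permutation test, against 14.9% of all genes, and the adjusted p was at least 0.222 for every member. The wider spread in D2 is therefore given as a description.

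The same mice were high or low in nearly all members. D2 replicates 3 and 4 were the lowest pair of D2 for 9 of the 10 members, against 9.98% of the well-counted genes. Averaged over the members, D2 replicate 3 lay at 68.7% and D2 replicate 4 at 66.5% of the geometric mean of D2, while D2 replicates 1, 2 and 5 lay at 138%, 140% and 114%. Neither of the low mice was above the strain mean for any member. D2 replicates 1 and 2 were each the highest of D2 for 5 members.

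In B6 the deviations were smaller, and they were uniform over the members in replicates 2 and 4 and mixed in replicates 1 and 5, which lay above the strain mean for 5 and 6 members. B6 replicate 2 was the lowest of its strain for 10 of 10 members and lay at 79.1% of the geometric mean of B6. B6 replicate 4 was the highest for 8 members, lay above the strain mean for all 10 and averaged 118% of it. B6 replicates 1, 3 and 5 lay at 101%, 104% and 102%. In every mouse the median absolute deviation over the well-counted genes was between 0.04 and 0.08 log2 units. Over the members it was 0.463, 0.384, 0.432 and 0.471 in D2 replicates 1 to 4. This measure ignores the sign, so it does not separate the low mice from the high ones. Over the well-counted genes the median absolute deviation was 0.0450 and 0.0538 in D2 replicates 3 and 4. It was 0.0605, 0.0519 and 0.0446 in D2 replicates 1, 2 and 5. Whether D2 replicates 3 and 4 stood apart over the transcriptome was not tested.

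**Figure D4:**
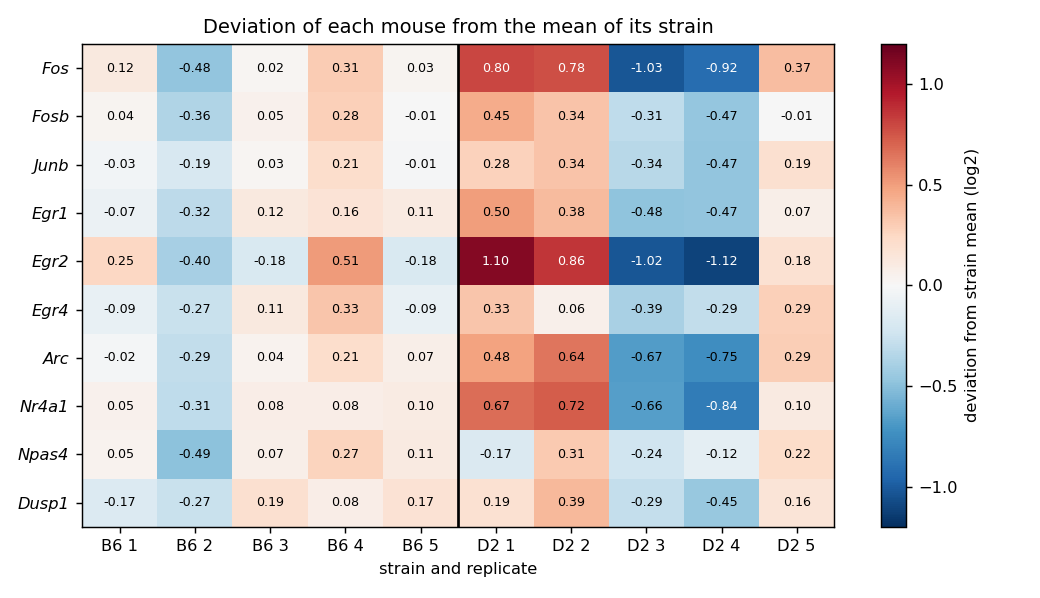
Deviation of each mouse from the mean of its strain (colour and printed value, log2 units; columns are mice, rows are genes, and the line divides the strains). D2 replicates 3 and 4 are negative for all 10 genes, from -0.12 to -1.12, as is B6 replicate 2, from -0.19 to -0.49.

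Across the 10 mice, the deviations from the strain mean were correlated between members. Over the 45 pairs of members, Pearson's r had a median of 0.916 and ranged from 0.487 to 0.987, and Spearman's rho had a median of 0.855. The closest pairs were Fos with Arc (r = 0.987) and Junb with Arc (r = 0.987). The least close was Egr2 with Npas4 (r = 0.487), and Npas4 had the lowest median r with the other members, 0.604, whereas that of Fos was 0.966. Over all pairs of well-counted genes the median r was 0.005.

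The correlation rested in part on the lowest mice. D2 replicates 3 and 4 were the mice farthest from their strain mean, averaged over the members. Without them, the median r over the 45 pairs was 0.727 in the 8 mice left, with a range from 0.183 to 0.979. Fos with Arc kept an r of 0.926 and Junb with Arc one of 0.933. The points of each pair share the mouse, its dissection, its RNA and its library, and removing the strain means leaves 8 independent values of the 10, so these correlations are given as a description.

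Of 52 other activity-regulated genes, a list of transcription factors and effectors, 0 were higher and 5 were lower in D2 (edgeR, adjusted p under 0.05), against 8.5% and 9.83% of all genes. In both directions together 9.62% of the list was called, beside 23.8% of the well-counted genes. The median log2 fold change of the list was -0.11. The 5 lower genes were Dusp5, Homer1, Dusp14, Arl4d and Egr3. Dusp5, a phosphatase of nuclear ERK, fell from 7.80 ± 1.08 CPM in B6 to 4.93 ± 0.906 CPM in D2 (SD, n = 5 each; log2 fold change -0.66, SE 0.130, adjusted p = 0.00292, edgeR). Homer1, a scaffold of the postsynaptic density whose short form is activity-induced, fell from 164 ± 7.70 to 146 ± 4.59 CPM (adjusted p = 0.0105, edgeR).

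Egr3, a further zinc finger factor of the EGR family, fell from 115 ± 9.55 to 96.6 ± 10.3 CPM (log2 fold change -0.26, SE 0.0748, adjusted p = 0.0311, edgeR). Its call was lost without B6 replicate 4, D2 replicate 3 or D2 replicate 4, with an adjusted p of up to 0.071. Dusp5, Homer1, Dusp14 and Arl4d were called with any 1 mouse left out. The count of 5 rose to 10 without B6 replicate 1 or without D2 replicate 1. The next by adjusted p were Ier5 (0.0539), Klf10 (0.0876) and Plk2 (0.0930), all 3 with D2 means below those of B6. D2 replicates 3 and 4 were the lowest pair of D2 for 27 of the 49 list genes that were well counted.

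The genes upstream of the response, which encode kinases, calcium sensors, CREB and serum response factor with their partners, varied less between mice gene by gene. The median SD between mice of a strain was 0.0740 log2 units over the 37 genes, beside 0.339 over the members and 0.0937 over the well-counted genes. The r of single genes with the mean of the members ranged from -0.67 (Elk1) to 0.84 (Srf), with a median of 0.04. Srf, the serum response factor itself, had D2 replicates 3 and 4 as its lowest pair in D2, though its levels spanned little, at 44.6 ± 2.29 CPM in D2 and 47.1 ± 2.24 CPM in B6 (SD, n = 5 each). D2 replicates 3 and 4 were the lowest pair of D2 for 2 of the 37 upstream genes, beside 9.98% of the well-counted genes. Elk1 and Srf were chosen after their values were seen. The deviations from the strain mean, averaged over the 37 genes whatever their sign, lay between -0.02 and 0.03 log2 units in every mouse, including those in which the members were low. Of the 37, 0 were higher and 5 were lower in D2 (edgeR), with a median log2 fold change of -0.04. This was 13.5% called, beside 18.3% of all genes and 23.8% of the well-counted genes, to which all 37 belong. Crtc3, a CREB coactivator, fell from 24.04 ± 1.46 to 20.1 ± 0.783 CPM (adjusted p = 0.00238, edgeR) and was called with any 1 mouse left out.

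Mrtfb and Elk3, partners of serum response factor, the GTPase Hras and the EGR corepressor Nab2 were also lower in D2, with log2 fold changes of -0.13, -0.33, -0.17 and -0.18. Each of these calls was lost without at least 3 of the mice in turn, and the count over the list was 2 without B6 replicate 2, D2 replicate 1 or D2 replicate 4, 3 without B6 replicate 4, D2 replicate 2 or D2 replicate 3, and 8 without B6 replicate 1. The next by adjusted p were Rps6ka2 (0.0532), Mapk3 (0.0571) and Braf (0.0587), of which Mapk3 and Braf had higher means in D2.

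**Figure D5:**
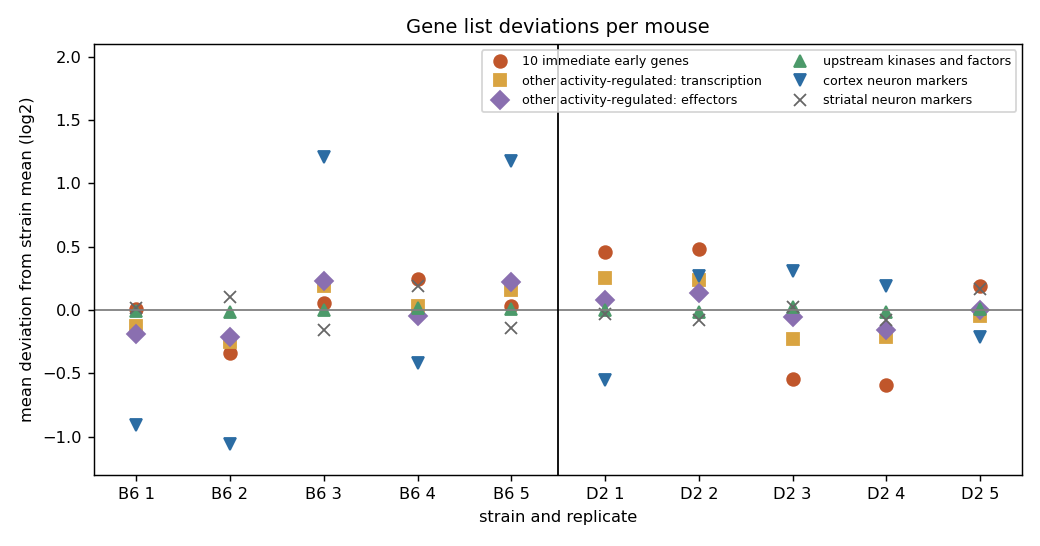
Mean deviation from the strain mean (y axis, log2) of 6 gene lists in each mouse (x axis). The immediate early genes are low in D2 replicates 3 and 4 (-0.54 and -0.59) and B6 replicate 2 (-0.34), upstream genes stay within -0.02 and 0.03, and cortex neuron markers range from -1.06 to 1.21 in B6.

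Cell type markers moved with the members in some mice and not in others. The cortex neuron list deviated by -0.90, -1.06, 1.21, -0.42 and 1.18 log2 units in B6 replicates 1 to 5, where the members deviated by 0.01, -0.34, 0.05, 0.24 and 0.03. In D2 the cortex list deviated by -0.55, 0.26, 0.31, 0.19 and -0.21, while the members deviated by 0.46, 0.48, -0.54, -0.59 and 0.19. B6 replicate 2 was thus lowest in both, whereas D2 replicates 3 and 4 were slightly above the strain mean in cortex markers. The 3 cortex markers with the highest counts had r values of 0.02 (Slc17a7), -0.12 (Nptxr) and -0.09 (Lamp5) with the mean of the members over the 10 mice.

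The striatal neuron list deviated by -0.16 to 0.19 over the 10 mice, and by 0.02 and -0.08 in D2 replicates 3 and 4. The r values with the members were -0.19 for Adcy5, -0.06 for Ppp1r1b, the phosphoprotein DARPP-32, and -0.10 for Pde10a. Over whole lists, r ranged from -0.13 to 0.16 for cortex and from -0.19 to 0.33 for striatal markers, whereas it was higher for astrocyte markers (0.02 to 0.60, median 0.35) and blood markers (0.30 to 0.59, median 0.54). Oligodendrocyte markers (-0.26 to 0.37, median 0.33) and microglia markers (0.0037 to 0.48, median 0.14) lay between, and endothelial and mural markers lay from -0.46 to 0.17. Gfap, the astrocyte filament gene, had the highest r of its list, 0.60, and the β-globin gene Hbb-bt that of the blood list, 0.59, both named after their values were seen. D2 replicates 3 and 4 were the lowest pair of D2 for 4 of the 7 astrocyte markers and 0 of the 5 blood markers. The part of these cell types in the levels of the members was not tested. With the cortex marker level as a covariate, 0 members were called and the median log2 fold change of the members was -0.22.

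The genes whose deviations were most like the mean of the members were ranked over the 15378 other well-counted genes, where the median r was 0.0048. The 10 most alike were Ppp1r14b (r = 0.951), Snx6 (0.925), Hbegf (0.924), Trib1 (0.923), 1700016P03Rik (0.921), Dnajb5 (0.910), Agmo (0.906), Per1 (0.905), Mlx (0.903) and Smim14 (0.902). These r values are over 10 mice and were picked as the highest of 15378, which by itself makes them high, and they were not tested. Without D2 replicates 3 and 4 they ranged from 0.589 (Mlx) to 0.905 (Hbegf). Trib1, which encodes a pseudokinase, and the clock gene Per1 belong to the list of other activity-regulated genes, of which 9 of 49 were among the 40 most alike.

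The size of the changes differed among these genes although their order over the mice was alike. The transcript 1700016P03Rik, the host of Mir132 and Mir212, stood at 9.60, 11.1, 2.69, 2.82 and 6.81 CPM in D2 replicates 1 to 5, a range like that of Fos. Per1 stood at 181, 163, 121, 124 and 141 CPM. Snx6, which encodes a sorting nexin, stood at 28.8, 28.7, 27.3, 27.0 and 27.9 CPM, so that its likeness was one of order and not of size. Between the strains, 2 of the 10 were called, Hbegf (log2 fold change -0.26, adjusted p = 0.00714) and Agmo (-0.61, adjusted p = 0.000777), both lower in D2 in edgeR.

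Levels of different members can be compared only per length. Per kilobase of the canonical transcript, the order in B6 was Egr1 (48.5 ± 6.34 CPM per kilobase), Nr4a1 (39.3 ± 4.32), Junb (37.1 ± 3.72), Arc (33.9 ± 4.16), Dusp1 (11.8 ± 1.66), Npas4 (8.59 ± 1.55), Fos (8.21 ± 1.53), Egr4 (4.99 ± 0.815), Fosb (4.35 ± 0.671) and Egr2 (2.25 ± 0.600), with SD over 5 mice. The ranges of neighbours in this order overlapped except between Arc and Dusp1 and between Fosb and Egr2. In D2, Junb (32.8 ± 8.06) came before Nr4a1 (29.4 ± 13.7) and Fosb (4.21 ± 1.14) before Egr4 (3.83 ± 0.847), within overlapping ranges. The order depended on the length used. With all annotated exons joined, the B6 level per kilobase was 9.20 for Nr4a1, 7.08 for Dusp1 and 2.63 for Fosb, so that Nr4a1 moved from place 2 to 4, Arc from 4 to 2 and Dusp1 from 5 to 7, while Egr1 stayed first and Egr4, Fosb and Egr2 stayed last.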

How the data were processed

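The NAc of 5 B6 and 5 D2 mice was sequenced, with 1 library per mouse. Per the labels and the study's methods, the authors made the counts by trimming with fastp, alignment to GRCm39 with STAR 2.7.10b, sorting with SAMtools 1.6 and counting by gene with featureCounts. What was deposited are unnormalized counts, without genes whose median was 0. Summary scores that the authors added per gene (median, mean and number of samples under 1) were not used. Reads of both strains were aligned to the B6 genome, so reads that differ from it can align less well in D2, and the counting strand is not given in the sources used here. The members and lists were chosen with earlier results of these data known.

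Symbols and coordinates came from GENCODE for GRCm39, which named 29519 of 29883 genes. Counts were fitted with edgeR 4.0.16 in R 4.3.3 (TMM, strain as the factor, quasi-likelihood F test, two-sided, Benjamini-Hochberg over all genes, threshold 0.05). SE was the size of the log2 fold change over the root of its F statistic. Spread used log2 CPM with a prior count of 2 and two-sided exact permutation tests. Named genes were the 10 members, up to 8 of each list with the smallest adjusted p, the 10 most alike genes and the 3 cortex and 3 striatal markers with the highest counts. Alternatives included DESeq2 1.42.0, limma-voom (limma 3.58.1), other normalizations and filters, covariates and each mouse left out. The fits were tested on simulated data. Other marker lists (astrocytes, oligodendrocytes, microglia, endothelium, blood and choroid plexus with ependyma) are given in the closing section. No 2 libraries of a strain matched within sampling noise. The intervals of the log2 fold changes rest on the quasi-likelihood fit and so include the variation between mice. The coefficients of variation given for counting alone cover counting error only.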

Additional observations from a re-analysis of the deposited data

Results flagged for a closer look

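Of the 20 combinations of a member and a strain, 1 held a mouse that stood apart from the other 4. Nr4a1 in B6 replicate 2 was 80.7 CPM, the lowest of B6, while the other B6 mice lay between 103 and 107 CPM. Its gap to the nearest mouse was 0.862 of the whole range, above the 95% critical value of 0.71 for 5 mice. Chance alone marks about 1 in 20 such combinations. B6 replicate 2 was also the lowest B6 mouse for all other members.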

How the results depend on the processing

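Over 495 combinations of a result and another setting, 467 kept the direction and the side of the threshold or the size, 20 moved and 8 reversed. No member was called in any edgeR, DESeq2 or limma-voom setting, including the fit with the replicate number as a block, which called 4731 genes, 0 members, 5 other activity-regulated and 4 upstream genes. Same-numbered mice deviated together with correlations from -0.415 to 0.371, and 2 of the 5 B6 mice matched the D2 mouse of their own number best. These values show no clear pairing by number but cannot exclude one. Whether same-numbered mice shared a cage, day or batch is not given in the sources used here. The reversals all came from leaving out 1 mouse: without B6 replicate 4 the log2 fold change was 0.02 for Fos and 0.03 for Fosb, without D2 replicate 3 it was 0.13 for Fos, 0.02 for Fosb and 0.0038 for Dusp1, and without D2 replicate 4 it was 0.13 for Fos, 0.057 for Fosb and 0.041 for Dusp1. Their ranges with 1 mouse left out were -0.26 to 0.13 for Fos, -0.17 to 0.057 for Fosb and -0.16 to 0.041 for Dusp1. With 1 mouse left out the median log2 fold change of the members lay between -0.35 and -0.10, the median pair correlation between 0.876 and 0.926, the median SD between 0.303 and 0.362, the genes called between 4636 and 5676, and the calls between 4 and 10 for the other activity-regulated and 2 and 8 for the upstream genes. DESeq2 called 9 upstream genes. The size of the log2 fold changes depended on the method: in limma-voom it was -0.25 for Fos and -0.58 for Egr2, beside -0.06 and -0.34 in edgeR. With the cortex markers as a covariate 7791 genes were called in all, with 12 other activity-regulated and 13 upstream genes. At an adjusted p under 0.01, 3415 genes were called, and at an unadjusted p under 0.05, 1 member. Without B6 replicate 2 the SD of Npas4 was 0.199. With joined exons the B6 level per kilobase was 2.63 for Fosb, 28.2 for Junb, 29.7 for Arc, 9.20 for Nr4a1 and 7.08 for Dusp1. Chosen after seeing the data were the unadjusted threshold, the joined exons, deviations from the strain mean in the spread test, and the calls of the lists with 1 mouse left out. The 95% intervals of Fos, Egr1, Egr2, Egr4, Arc and Nr4a1 include strain differences of over 1.5-fold, and the spread between mice was far above the counting error of at most 6.59%.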

Other observations

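The calls among markers of other cell types are set beside 18.3% of all genes and 23.8% of the genes with 100 counts or more on average. Of 7 astrocyte markers, 1 was higher and 3 were lower in D2 (edgeR, adjusted p under 0.05). The 7 oligodendrocyte markers had 0 higher and 4 lower (57.1% in both lists), with a median log2 fold change of -0.34. Microglia markers had 1 higher and 2 lower of 7 (42.9%). Endothelial and mural markers had 1 and 1 of 8 (25%) and choroid plexus and ependyma markers 0 and 1 of 6 (16.7%), close to the share of all genes. Of 5 blood markers, 0 were higher and 3 were lower, among them the globin gene Hba-a2, which fell from 9.58 ± 1.69 CPM in B6 to 0.216 ± 0.0493 CPM in D2 (SD, n = 5 each). Globin genes are near-identical copies, so the split of reads between them is uncertain. Averaged over each list, D2 replicates 3 and 4 deviated from their strain mean by -0.07 and -0.10 log2 units in astrocyte markers, by 0.09 and -0.28 in oligodendrocyte markers, by 0.07 and -0.17 in microglia markers and by 0.08 and -0.49 in blood markers.

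Some other activity-regulated genes showed a wide range in B6 that the members did not. Nr4a2, a nuclear receptor related to Nr4a1, ranged from 2.52 to 32.7 CPM in B6 and from 4.67 to 12.98 CPM in D2, and its r with the members was 0.07. Bdnf, the neurotrophin, ranged from 1.51 to 9.22 CPM in B6 and from 3.24 to 5.94 CPM in D2, with an r of 0.09. In B6 replicates 1 to 5 the list of other transcription factors deviated by -0.13, -0.25, 0.19, 0.03 and 0.16 log2 units. The effector list deviated by -0.19, -0.22, 0.23, -0.04 and 0.22, and the cortex neuron list by -0.90, -1.06, 1.21, -0.42 and 1.18. The part of cortical tissue in these ranges was not tested. Nr4a2 and Bdnf were chosen after their values were seen. In contrast, Fosl2, Nr4a3 and Btg2, also chosen after their values were seen, had r values of 0.88, 0.82 and 0.86.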
